A study of Mus musculus with 16 samples.

Results

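Inguinal white fat (iWAT) of mice homozygous for PPARg-K107R was compared with that of wild-type (WT) mice after rosiglitazone. The comparison rests on 4 of the 16 libraries of the series, namely 2 K107R and 2 WT inguinal libraries, which the labels number 1 and 2 in each genotype and which were paired by that number. Every group ate regular chow for 10 weeks and then a high fat diet, with 60% of calories from fat, for 19 weeks. The 4 libraries come from mice gavaged for 1 week with rosiglitazone at 10 mg/kg in 1% methylcellulose. The 4 inguinal libraries of mice gavaged with the methylcellulose vehicle alone (2 K107R, 2 WT) and the 4 epididymal (eWAT) libraries of rosiglitazone-treated mice were used to test where the genotype difference changed with the drug or the depot. The labels give no strain, sex or age beyond the feeding weeks. Nothing in them tells whether libraries 1 and 2 of a group are different animals, so p-values here refer to the spread of libraries, part or all of which can be technical.

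PPARg is the nuclear receptor that drives fat cell formation and lipid storage, and rosiglitazone is a thiazolidinedione that binds and activates it. It works as a heterodimer with RXR on direct repeats of the half-site AGGTCA spaced by 1 base, called DR1 elements. The lysine named in K107R lies in the amino-terminal part of the receptor and accepts a SUMO group, a small protein modifier, and arginine in its place cannot. In inguinal fat, thiazolidinediones are known to raise lipid storage and oxidation genes and to bring out thermogenic, or beige, fat cells. The title of the series names insulin sensitivity and adiposity as the subject.

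The altered codon is shown because it defines the genotype. In the GENCODE annotation of GRCm38 it lies at chr6:115441500-115441502 on the plus strand, in coding exon sequence of Pparg. K107R counts residues of the 505-residue product (transcript Pparg-201, exon 3), and in the 475-residue product (Pparg-202 and Pparg-204, exon 4) the same change is K77R. The reference sequence around it, with the lysine codon in capitals, is
Pparg lysine codon: caaagtgcgatcAAAgtagaacctgca
The deposited values are per gene and do not show the codon itself, so the genotype could not be checked from these files.

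Levels are the deposited FPKM values (fragments per kilobase of transcript, scaled to mapped reads), which are scaled by gene length. Differences are K107R minus WT on the log2(FPKM + 1) scale, which understates the change of low genes, with a standard error (SE) from limma and a Benjamini-Hochberg adjusted p over 13669 genes. A gene passed the test at an adjusted p under 0.05. Where levels are set against each other, the K107R libraries 1 and 2 come before the WT libraries 1 and 2, and the brackets hold the log2 difference, its SE and its adjusted p from limma. The summed FPKM of the 4 libraries was 484086 to 565895, and 11442 to 12583 genes reached 1 FPKM. The libraries numbered 2 stood apart from those numbered 1 in both genotypes: their median FPKM was 5.47 (K107R) and 6.32 (WT), against 9.32 and 9.23. The actin gene Actb was at 21.7 and 39.5 FPKM in the libraries numbered 2 and at 771 and 859.9 FPKM in those numbered 1. The replicate number was therefore kept as a block, and the counts without it are given beside the gene groups whose counts it changed. The labelled tissue showed its defining genes: 7 of 8 fat cell markers were detected in every library, with a summed level of 15696 and 16096 FPKM in K107R and 11501 and 12826 FPKM in WT. The eighth, Fabp4, is listed at 0 in all 4 libraries, as are Lpl and Car3, so no change is given for these genes.

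Of 13669 genes tested, 1669 (12.2%) passed. The number higher in K107R was 561 (4.1%) and the number lower was 1108 (8.11%). The libraries of the genotypes did not overlap for 1286 higher genes (9.41%) and 1944 lower genes (14.2%). With each library rescaled by its median ratio, the calls were 1322 higher and 1272 lower. The called changes of at least 1 on the log2 scale numbered 86 higher and 359 lower. Of these 359, 178 were lymph node transcripts, which were kept apart from fat cell genes. Lymph node transcripts are 814 tested genes, taken as markers of B, plasma, T, natural killer and lymph node stroma cells, immunoglobulin and T cell receptor symbols, and genes that followed those markers with r of at least 0.8 over the 12 libraries outside the comparison. None of the 814 was higher and 364 (44.7%) were lower. Only 64 of them entered by list or symbol, and the rest by r. The 12 libraries include the inguinal vehicle ones, where the summed B cell level was 303 and 249 FPKM in K107R and 465 and 367 FPKM in WT. The r rule thus favours genes that were lower in K107R with vehicle, so the direction of this count is no separate result. Membership does not show that the RNA of a gene came from node cells. Among the other 12855 genes, 561 were higher (4.36%) and 744 lower (5.79%). In bulk tissue, fewer cells of a type and less RNA per cell cannot be told apart.

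Pparg itself did not pass the test. It stood at 163 and 82.1 FPKM in the K107R libraries and 139 and 74.2 FPKM in the WT libraries (0.19 ± 0.0988 SE, adjusted p = 0.316), and the libraries numbered 2 were the low ones in both genotypes. None of the 23 tested genes of PPARg, its RXR partners, its coregulators and the SUMO pathway passed, with a median difference of -0.0573 beside -0.0143 over all genes tested. Rxra, the heterodimer partner, was at 49.9 and 34.3 FPKM against 41.4 and 33.3 FPKM (0.15 ± 0.14 SE, adjusted p = 0.62). Ncor1, a corepressor, was at 35.1 and 17.03 FPKM against 29.9 and 16.9 FPKM (0.12 ± 0.14 SE, adjusted p = 0.725), and Senp1, a SUMO protease, was at 3.71 and 2.26 FPKM against 4.45 and 3.51 FPKM (-0.34 ± 0.12 SE, adjusted p = 0.126). Under the median-ratio rescaling 1 of the 23, Senp1, passed as lower.

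Single genes of lipid metabolism were much higher in K107R, led by Sptlc3. Sptlc3 (chr2:139493913-139637061) encodes a subunit of serine palmitoyltransferase, the first enzyme of sphingolipid synthesis. It was at 54.9 and 39.6 FPKM in the K107R libraries and 3.93 and 2.77 FPKM in the WT libraries, a ratio of 13.98 and 14.3 in pairs 1 and 2 (3.47 ± 0.15 SE, adjusted p = 1.08e-06). The genotypes did not overlap, and the gap was many times the spread within either. The other catalytic and partner subunit genes did not pass: Sptlc1 was at 22.5 and 11.5 FPKM against 19.9 and 12.2 FPKM (0.0495 ± 0.13 SE, adjusted p = 0.901) and Sptlc2 at 17.2 and 6.33 FPKM against 13.1 and 6.59 FPKM (0.16 ± 0.28 SE, adjusted p = 0.829). Of 18 sphingolipid genes tested, 1 was higher (Sptlc3) and 1 lower, a share of 11.1% that is near the 12.2% of all genes. The lower one was Degs2, a dihydroceramide desaturase and hydroxylase, at 5.19 and 4.75 FPKM against 8.25 and 9.17 FPKM (-0.7004 ± 0.0977 SE, adjusted p = 0.00114).

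Hsd17b11, a dehydrogenase of the lipid droplet surface, was at 431 and 315 FPKM in the K107R libraries and 90.6 and 80.3 FPKM in the WT libraries (2.099 ± 0.13 SE, adjusted p = 6.61e-06). Fabp3, a cytosolic fatty acid carrier known from heart and muscle, was at 71.03 and 106 FPKM against 17.8 and 21.2 FPKM (2.103 ± 0.14 SE, adjusted p = 9.04e-06). For both genes the 2 K107R values lay above the 2 WT values. Fgf21, a hormone of fasting and of fat, was at 15.4 and 14.4 FPKM against 3.16 and 3.54 FPKM (1.87 ± 0.10003 SE, adjusted p = 2.6e-06). Cyp4b1, a cytochrome P450 of the fatty acid hydroxylase family, was at 502 and 443 FPKM against 166 and 188 FPKM (1.41 ± 0.104 SE, adjusted p = 1.74e-05), and Ephx2, the soluble epoxide hydrolase, at 1270.5 and 766 FPKM against 569 and 428 FPKM (0.998 ± 0.13 SE, adjusted p = 0.000894). Both were named here after their values were seen.

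**Figure D1:**
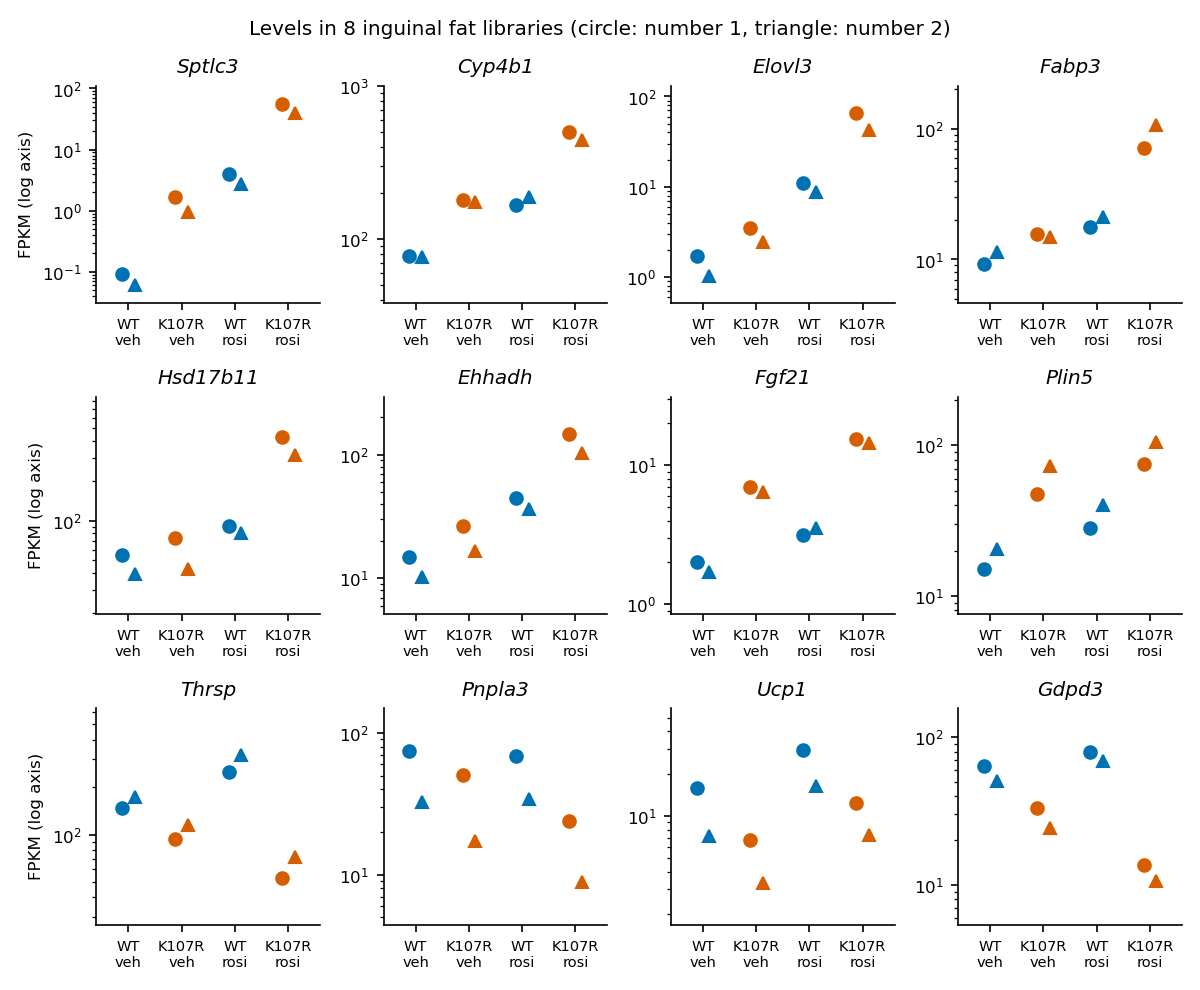
FPKM (log axis) of 12 genes in 8 inguinal libraries, by genotype and treatment (veh, vehicle; rosi, rosiglitazone), with circles for libraries numbered 1 and triangles for those numbered 2. With rosiglitazone, the 2 K107R points lie above both WT points for the 8 genes of the upper rows and below them for the 4 genes of the bottom row.

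Of 26 fatty acid oxidation genes tested, 6 were higher and 1 lower (26.9%, beside 12.2% of all genes), with a median of 0.20. The largest rise was in a peroxisomal enzyme. Ehhadh, the peroxisomal bifunctional enzyme, was at 146 and 103 FPKM in the K107R libraries and 44.4 and 36.1 FPKM in the WT libraries (1.595 ± 0.12 SE, adjusted p = 2.38e-05). Pex11a, which divides peroxisomes, was at 44.3 and 42.1 FPKM against 29.1 and 27.5 FPKM (0.59 ± 0.12 SE, adjusted p = 0.00919). Both lay above WT in both pairs, by far the most for Ehhadh. Also higher were Eci1 (0.54), Acaa2 (0.48) and Eci2 (0.43), enzymes of the oxidation spiral. Echs1, the short-chain enoyl-CoA hydratase, fell by 0.41 (adjusted p = 0.0267). Of the carnitine shuttle, Cpt1b was at 49.3 and 12.02 FPKM against 21.7 and 7.604 FPKM and did not pass (0.88 ± 0.26 SE, adjusted p = 0.065). Mitochondrial respiration genes passed in 1 of 30 cases (Cox6b1, 0.35), with a median of 0.0492, and in 0 without the block. The oxidation counts were 2 higher and 0 lower without the replicate block, and 3 and 0, 4 and 0, 4 and 0 and 5 and 0 without K107R library 1, K107R library 2, WT library 1 and WT library 2 in turn, and 10 higher and 1 lower after rescaling.

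Lipid droplet and storage genes that PPARg is known to activate were higher in 9 of 32 cases and lower in 1 (Ucp1), with a median of 0.20. The share called was 31.2%, beside 12.2% of all genes. Plin5, a droplet coat protein that tethers droplets to mitochondria, was at 75.1 and 105 FPKM in the K107R libraries and 28.4 and 40.2 FPKM in the WT libraries (1.37 ± 0.0881 SE, adjusted p = 8.03e-06). Plin2, the ubiquitous droplet coat protein, was at 956 and 1276 FPKM against 509 and 709 FPKM (0.88 ± 0.0877 SE, adjusted p = 0.000136). Pck1, the key enzyme of glyceroneogenesis, was at 822 and 837 FPKM against 509.8 and 554 FPKM (0.64 ± 0.0886 SE, adjusted p = 0.00106), and the retinol carrier Rbp7 at 593 and 841 FPKM against 386 and 518 FPKM (0.66 ± 0.0969 SE, adjusted p = 0.0016). In each of these 4 genes the lower K107R value exceeded the higher WT value. Gyk (0.796), Cidec (0.51), Gpd1 (0.35) and Fabp3 also rose. Well-known targets that did not pass include Adipoq, the adiponectin gene, at 3319.9 and 2720.1 FPKM against 2734 and 2691 FPKM (0.15 ± 0.12 SE, adjusted p = 0.552), and Cd36, a fatty acid translocase, at 2479 and 689.9 FPKM against 1725 and 666 FPKM (0.29 ± 0.299 SE, adjusted p = 0.672). The storage counts were 3 higher and 0 lower without the replicate block, and 6 and 1, 5 and 1, 5 and 1 and 6 and 1 without K107R library 1, K107R library 2, WT library 1 and WT library 2 in turn.

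Promoters were searched for the DR1 motif AGGTCANAGGTCA, on both strands with at most 2 mismatches, in RefSeq windows of 300 bases (250 before to 50 after the start). Of 10273 tested genes with a window, 376 (3.66%) held a match. Among genes higher in K107R outside the lymph node set the count was 24 of 407 (5.9%), and among the lower ones 29 of 550 (5.27%). Single matches were read for the 15 largest rises outside the lymph node set and for Ehhadh, Plin5, Plin2, Pex11a, Pdk4, Cyp4b1 and Ephx2. Other genes discussed above, such as Pck1, Rbp7, Gyk, Cidec and Gpd1, were not read singly. Among those read that have a window, only Plin2 held a match. Its window (chr4:86670010-86670309, minus strand, GRCm38.p6) is printed with the match in capitals, 225 bases before the start, where the other strand reads AGGTCAGGGGTCC. The window of Sptlc3, shown because that gene had the largest difference, lies at chr2:139493663-139493962 on the plus strand and held no match.
Plin2 promoter: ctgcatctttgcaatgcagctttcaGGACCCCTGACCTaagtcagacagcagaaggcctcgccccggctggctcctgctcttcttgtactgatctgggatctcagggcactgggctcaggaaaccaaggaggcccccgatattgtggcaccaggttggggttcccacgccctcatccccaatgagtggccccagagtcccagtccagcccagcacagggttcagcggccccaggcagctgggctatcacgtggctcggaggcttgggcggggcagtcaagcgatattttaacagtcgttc
Sptlc3 promoter: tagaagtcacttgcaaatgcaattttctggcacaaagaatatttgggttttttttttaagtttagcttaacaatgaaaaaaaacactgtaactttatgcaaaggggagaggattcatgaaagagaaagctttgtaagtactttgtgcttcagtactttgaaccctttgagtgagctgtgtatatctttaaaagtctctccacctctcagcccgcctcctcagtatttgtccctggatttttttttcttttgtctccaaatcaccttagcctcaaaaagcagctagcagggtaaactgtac
A match is a description of letters and not a bound site, and no match says only that these letters are not in the window.

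Genes of brown and beige fat split in both directions. Of 17 tested, 6 were higher and 3 lower (52.9%, beside 12.2% of all genes). Elovl3, a very-long-chain fatty acid elongase of cold-exposed brown fat, was at 65.3 and 42.8 FPKM in the K107R libraries and 11.2 and 8.74 FPKM in the WT libraries (2.31 ± 0.16 SE, adjusted p = 1.29e-05). Also higher were Fabp3, Fgf21 and Plin5, given above, and the transcription factor Lhx8 at 8.55 and 2.04 FPKM against 2.69 and 0.718 FPKM (1.096 ± 0.14 SE, adjusted p = 0.000523) and Cited1 at 4.45 and 4.09 FPKM against 1.96 and 1.79 FPKM (0.87 ± 0.15 SE, adjusted p = 0.00347). In contrast, Ucp1, the uncoupling protein that makes heat, was at 12.4 and 7.25 FPKM in the K107R libraries and 29.4 and 16.3 FPKM in the WT libraries (-1.13 ± 0.17 SE, adjusted p = 0.00215). Cox8b, the brown fat and muscle isoform of a cytochrome oxidase subunit, was at 88.9 and 106 FPKM against 157 and 216 FPKM (-0.91 ± 0.0854 SE, adjusted p = 8.4e-05), and Tbx1 at 1.13 and 0.953 FPKM against 1.95 and 1.69 FPKM (-0.46 ± 0.0881 SE, adjusted p = 0.00723). Both K107R values of Ucp1 lay below both WT values, although the spread between numbers 1 and 2 within a genotype was wider than the gap between genotypes. Cidea was at 35.2 and 34.4 FPKM against 33.98 and 37.9 FPKM (-0.0421 ± 0.16 SE, adjusted p = 0.943) and the regulators Prdm16 and Ppargc1a did not pass (-0.0573 and -0.0575). Cox8b, Tbx1, Lhx8, Cited1 and Cidea were named after their values were seen. Without the block, Ucp1 no longer passed (adjusted p = 0.354), and the counts were 5 higher and 1 lower without the replicate block, and 6 and 2, 6 and 3, 6 and 3 and 6 and 2 without K107R library 1, K107R library 2, WT library 1 and WT library 2 in turn.

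Of the 17 brown and beige fat genes, the genotype effect differed between the depots for 9, beside 4.78% of all genes. It was more negative in inguinal fat for 8 (beside 3.77% of all genes) and more positive for 1, Lhx8 (beside 1.01%). With rosiglitazone in epididymal fat, Ucp1 was at 18.97 and 20.2 FPKM against 3.46 and 2.54 FPKM in K107R and WT, the reverse of the inguinal order. The inguinal minus epididymal genotype difference was -3.498 ± 0.25 SE, adjusted p = 5.49e-05. The same held for Cox8b, at 81.3 and 91.8 FPKM against 36.3 and 39.9 FPKM in epididymal fat (depot difference -2.08 ± 0.12 SE, adjusted p = 3.12e-05). Cidea was at 21.1 and 19.4 FPKM against 4.98 and 6.295 FPKM there (depot difference -1.72 ± 0.23 SE, adjusted p = 0.00202). For Sptlc3 the epididymal values were 41.6 and 44.01 FPKM against 3.88 and 3.47 FPKM, close to the inguinal ones, and the depot difference did not pass (0.24 ± 0.21 SE, adjusted p = 0.744). Elovl3 likewise had no depot difference past the test (-0.42 ± 0.23 SE, adjusted p = 0.477), at 18.6 and 20.5 FPKM against 2.47 and 1.75 FPKM in epididymal fat.

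Of 19 lipogenesis genes tested, 5 were lower and 1 higher (31.6%, beside 12.2% of all genes), with a median of -0.26. Thrsp (chr7:97412933-97417550), also called Spot 14, a nuclear protein linked to lipogenic gene activity, was at 53.3 and 72.5 FPKM in the K107R libraries and 251 and 317 FPKM in the WT libraries (-2.16 ± 0.0872 SE, adjusted p = 7.65e-07), a WT to K107R ratio of 4.697 and 4.37 in pairs 1 and 2. Fasn, fatty acid synthase, was at 162 and 173 FPKM against 360.1 and 398 FPKM (-1.17 ± 0.0855 SE, adjusted p = 1.71e-05). Pnpla3, a lipid droplet protein induced by feeding, was at 23.9 and 8.82 FPKM against 69.01 and 34.1 FPKM (-1.66 ± 0.27 SE, adjusted p = 0.00288). The 2 genotypes did not overlap for any of the 3, and Pnpla3 varied most between numbers 1 and 2. Fads2 (-0.46) was also lower, as was Acss2 (-0.53), which counts as a lymph node transcript (r = 0.849 with the node markers). The r of Thrsp, Fasn and Pnpla3 with the node markers was 0.505, 0.704 and 0.767, under the limit of 0.8, and the part of node cells in their values was not tested. Acacb, the mitochondrial acetyl-CoA carboxylase, was the higher one, at 42.7 and 39.5 FPKM against 29.9 and 29.1 FPKM (0.46 ± 0.0812 SE, adjusted p = 0.00452). The regulators Srebf1 (0.18 ± 0.0913 SE, adjusted p = 0.277) and Mlxipl (-0.26 ± 0.1004 SE, adjusted p = 0.158) did not pass, nor did Acly (-0.395 ± 0.18 SE, adjusted p = 0.232). Fewer lipogenesis genes passed in these refits: the counts were 0 higher and 2 lower without the replicate block, and 0 and 3, 0 and 3, 0 and 4 and 1 and 2 without K107R library 1, K107R library 2, WT library 1 and WT library 2 in turn. Pnpla3 missed the threshold in 1 of these refits (adjusted p = 0.0505) and without the block (adjusted p = 0.37). After rescaling, 5 were higher and 7 lower.

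Gdpd3 (chr7:126766414-126775645), a lysophospholipase D, had one of the largest falls outside the lymph node set. It was at 13.6 and 10.7 FPKM in the K107R libraries and 78.99 and 68.7 FPKM in the WT libraries (-2.51 ± 0.0861 SE, adjusted p = 5.14e-07), so the WT level was 5.79 and 6.43 times the K107R level. Of the 20 tested genes within 200 kb, Gdpd3 included, 2 passed (10.0%, near the 12.2% of all genes). The second was Coro1a, an actin regulator of leukocytes (-1.65 ± 0.13 SE, adjusted p = 2.63e-05).

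**Figure D2:**
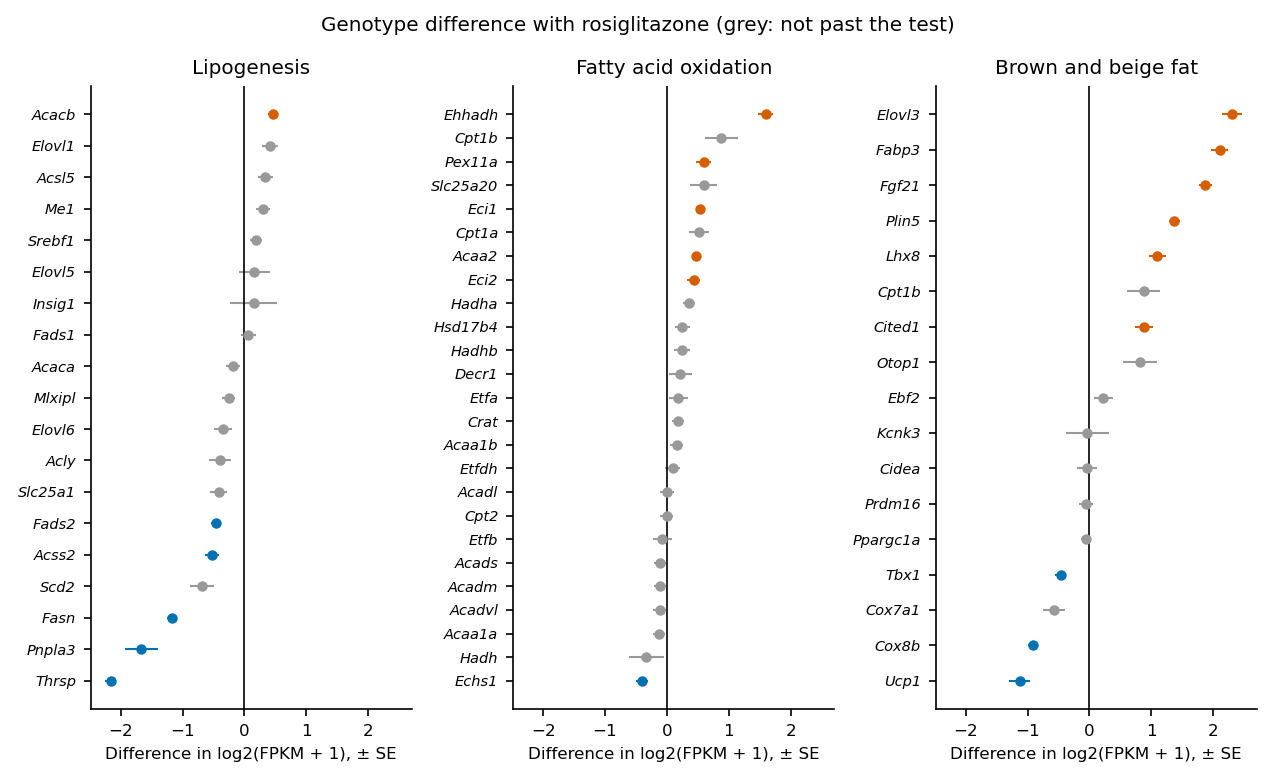
Difference between K107R and WT in log2(FPKM + 1), with rosiglitazone, for tested genes of the lipogenesis, fatty acid oxidation and brown and beige fat lists, with SE bars, orange for higher, blue for lower and grey for genes that did not pass. Thrsp (-2.16) and Ehhadh (1.60) stand at opposite ends of the first and second panels, and Elovl3 (2.31) and Ucp1 (-1.13) at opposite ends of the third.

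Secreted fat cell products and insulin signalling genes changed in a few members. Of 19 adipokines, 4 were higher and 3 lower (36.8%, beside 12.2% of all genes). Cfd, adipsin, was at 1159 and 867 FPKM in the K107R libraries and 551 and 483 FPKM in the WT libraries (0.96 ± 0.19 SE, adjusted p = 0.00903). Sfrp5 (0.55) and Fgf21 were also higher. Agt, angiotensinogen, was at 1.92 and 2.57 FPKM against 5.03 and 5.43 FPKM (-0.95 ± 0.0881 SE, adjusted p = 8.25e-05), and Rbp4, the retinol carrier of blood, at 102 and 84.9 FPKM against 179 and 163 FPKM (-0.87 ± 0.0819 SE, adjusted p = 9.13e-05). Tnf, a lymph node transcript by the rule, was the other lower one (-0.77). Leptin (Lep, 0.45 ± 0.15 SE, adjusted p = 0.0995) and resistin (Retn, -0.66 ± 0.24 SE, adjusted p = 0.128) did not pass. The adipokine counts were 2 higher and 2 lower without the replicate block, and 2 and 3, 3 and 3, 2 and 3 and 3 and 3 without K107R library 1, K107R library 2, WT library 1 and WT library 2 in turn.

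Of 24 insulin signalling and glucose use genes, 3 were higher and 2 lower (20.8%, beside 12.2% of all genes). Pdk4, a kinase that inhibits pyruvate dehydrogenase, was at 378 and 223 FPKM in the K107R libraries and 141 and 97.5 FPKM in the WT libraries (1.3002 ± 0.21 SE, adjusted p = 0.00249). Irs2, an insulin receptor substrate, was at 37.6 and 34.2 FPKM against 22.3 and 23.9 FPKM (0.62 ± 0.101 SE, adjusted p = 0.00311). Socs3, an inhibitor of cytokine and insulin signalling that counts as a lymph node transcript (r = 0.841), was lower at 2.59 and 1.84 FPKM against 4.82 and 4.36 FPKM (-0.81 ± 0.12 SE, adjusted p = 0.0016). Tbc1d4, a regulator of glucose transporter traffic, was also lower (-0.44), and Slc2a4, the insulin-responsive glucose transporter, did not pass (-0.0794 ± 0.12 SE, adjusted p = 0.793). The insulin signalling counts were 1 higher and 1 lower without the replicate block, and 1 and 1, 2 and 1, 2 and 2 and 2 and 1 without K107R library 1, K107R library 2, WT library 1 and WT library 2 in turn. Among 18 genes tied to PPARg phosphorylation in obesity, 2 were higher (Cfd, Cidec) and 2 lower (Cd24a, -1.12, and Cyp2f2, -0.58), a share of 22.2%. These counts were 0 higher and 1 lower without the replicate block, and 1 and 2, 0 and 2, 0 and 2 and 3 and 2 without K107R library 1, K107R library 2, WT library 1 and WT library 2 in turn. Without the block, Cfd, Cidec and Cd24a had adjusted p of 0.175, 0.244 and 0.961 by limma.

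Of 17 genes of lipolysis and its control 3 passed (17.6%, beside 12.2% of all genes). The β3-adrenergic receptor Adrb3 was lower at 13.1 and 5.64 FPKM against 22.7 and 11.5 FPKM (-0.83 ± 0.19 SE, adjusted p = 0.0205), while Adcy5, an adenylyl cyclase, was higher at 127 and 141 FPKM against 90.5 and 97.8 FPKM (0.503 ± 0.0761 SE, adjusted p = 0.00191), as was Cidec. Adrb3 did not pass in any of the 4 refits with 1 library left out (highest adjusted p = 0.164). The hormone-sensitive lipase gene Lipe did not pass (0.17 ± 0.11 SE, adjusted p = 0.456). The lipolysis counts were 0 higher and 0 lower without the replicate block, and 2 and 0, 1 and 0, 1 and 0 and 2 and 0 without K107R library 1, K107R library 2, WT library 1 and WT library 2 in turn. Of 21 genes of branched-chain amino acid breakdown, Bcat1 was higher (0.94 ± 0.19 SE, adjusted p = 0.0117) and Bcat2 and Ivd lower, a share of 14.3% that is near that of all genes. These counts were 0 higher and 0 lower without the replicate block, and 0 and 1, 0 and 0, 0 and 1 and 1 and 1 without K107R library 1, K107R library 2, WT library 1 and WT library 2 in turn, and Bcat1 had an adjusted p of 0.416 by limma without the block. Cholesterol synthesis (0 higher and 1 lower of 19, Srebf2) and the clock (0 and 1 of 19) were below the share over all genes.

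Matrix genes that passed were all higher, 8 of 30 (26.7%, beside 12.2% of all genes), with a median of 0.24. Thbs2 and Thbs1, thrombospondins that bind matrix and growth factors, were at 43.8 and 23.1 FPKM against 16.6 and 10.3 FPKM (1.22 ± 0.196 SE, adjusted p = 0.00268) and 26.1 and 18.6 FPKM against 10.5 and 8.19 FPKM (1.16 ± 0.12 SE, adjusted p = 0.000139). Fn1, fibronectin (0.56), Timp1 (0.57), Postn, Col12a1, Col14a1 and Col6a1 were the others. Among 20 fat progenitor and fibroblast markers, 5 were higher and 1 lower, a share of 30%. Wisp2, a secreted factor of progenitors, was at 20.8 and 25.5 FPKM against 8.19 and 11.3 FPKM (1.18 ± 0.0842 SE, adjusted p = 1.48e-05), and Sfrp4 at 8.704 and 7.51 FPKM against 4.67 and 3.902 FPKM (0.79 ± 0.13 SE, adjusted p = 0.00372). Thy1, which T cells also carry, was lower (-0.84 ± 0.0958 SE, adjusted p = 0.000324). The matrix counts were 3 higher and 0 lower without the replicate block, and 4 and 0, 3 and 0, 4 and 0 and 5 and 0 without K107R library 1, K107R library 2, WT library 1 and WT library 2 in turn, and the progenitor counts 2 higher and 1 lower without the replicate block, and 1 and 1, 2 and 1, 2 and 1 and 4 and 1 without K107R library 1, K107R library 2, WT library 1 and WT library 2 in turn.

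Of 30 macrophage markers, 10 were higher and 2 lower (40%, beside 12.2% of all genes). Itgad, an integrin chain of macrophages, was set apart from the rest at 41.1 and 43.96 FPKM in the K107R libraries and 2.76 and 3.24 FPKM in the WT libraries (3.45 ± 0.0805 SE, adjusted p = 5.33e-08). It also differed with vehicle, at 53.9 and 57.5 FPKM in K107R against 8.18 and 9.003 FPKM in WT (2.56 ± 0.0805 SE, adjusted p = 3.8e-07). The other higher ones rose by 0.32 to 0.89 on the log2 scale, among them Mmp12, a metalloelastase (0.89 ± 0.16 SE, adjusted p = 0.0052), and Retnla (0.79 ± 0.15 SE, adjusted p = 0.0073). Marco, a scavenger receptor also found on lymph node macrophages, was lower at 6.74 and 6.68 FPKM against 22.8 and 26.4 FPKM (-1.73 ± 0.12 SE, adjusted p = 1.47e-05), and Lyz1 was lower too (-0.72). Few of the higher calls held in other fits: the counts were 2 higher and 1 lower without the replicate block, and 2 and 2, 2 and 2, 1 and 2 and 3 and 2 without K107R library 1, K107R library 2, WT library 1 and WT library 2 in turn.

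Itgad lies at chr7:128173933-128205504. Its neighbours were read beside it because 5 of the 11 tested genes within 200 kb, Itgad included, passed, all higher (45.5%, beside 12.2% of all genes). The long noncoding RNA 4931431B13Rik overlaps Itgad and was at 12.04 and 17.8 FPKM against 0.823 and 0.868 FPKM (3.08 ± 0.17 SE, adjusted p = 2.67e-06). Cox6a2 overlaps the end of Itgad and was at 5.71 and 1.95 FPKM against 1.24 and 0.413 FPKM (1.32 ± 0.18 SE, adjusted p = 0.00101). Overlapping genes can share reads, so these values are uncertain. The integrin genes Itgam (0.595 ± 0.11 SE, adjusted p = 0.00718) and Itgax (0.32 ± 0.0881 SE, adjusted p = 0.0445) do not overlap Itgad and differed far less. Neither Itgam nor Itgax passed without the replicate block. Around Pparg, 9 of 67 tested genes within 5 Mb passed (13.4%), near the share over all genes. Itgam, Itgax and Cox6a2 were named after their values were seen.

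**Figure D3:**
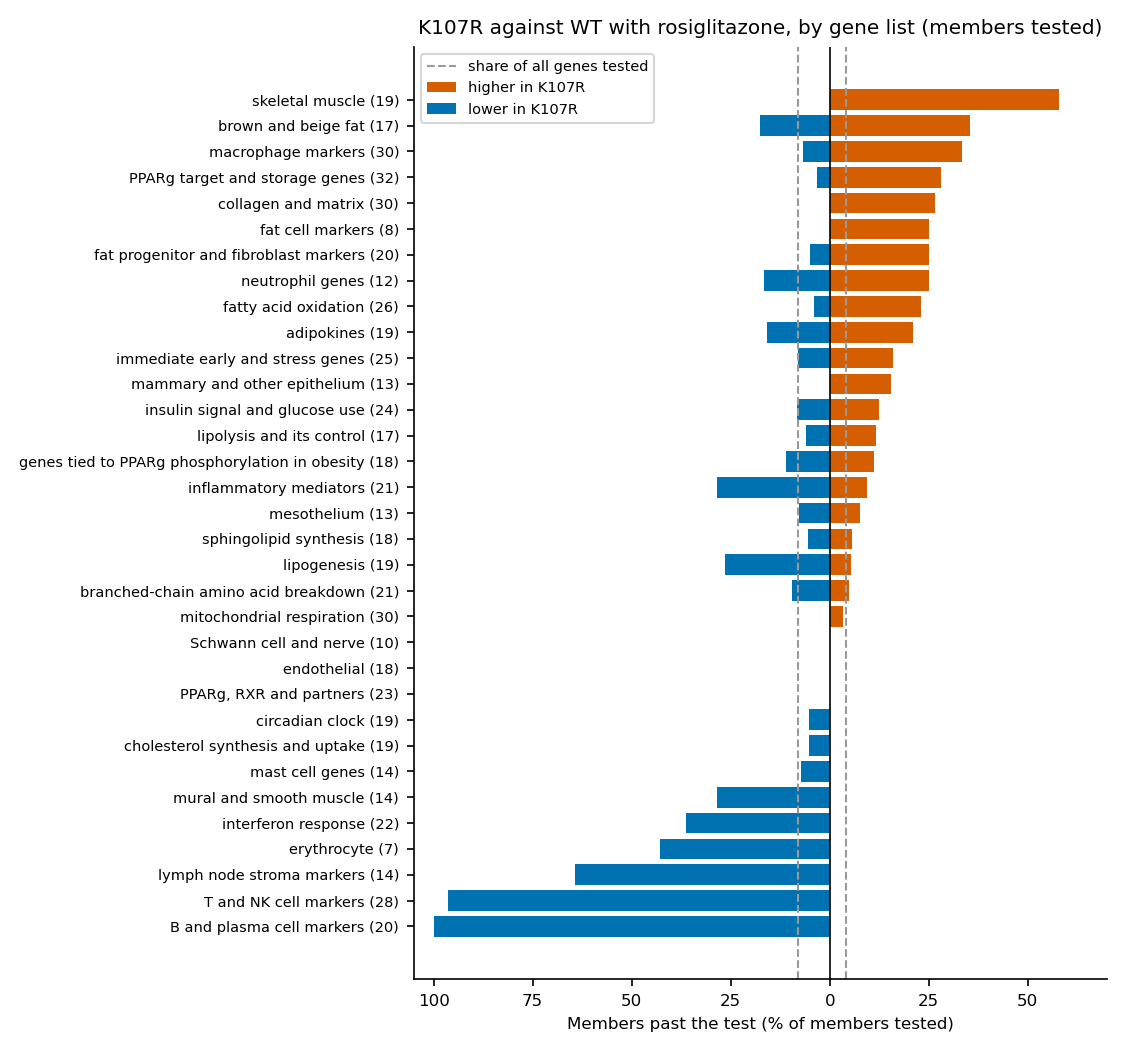
Share of tested members (in percent, number tested in brackets) of each gene list that were higher (orange, to the right) or lower (blue, to the left) in K107R with rosiglitazone. Dashed lines mark the shares over all genes, 4.1% higher and 8.11% lower. The B and T cell lists reach 100% and 96.4% lower, and the skeletal muscle list 57.9% higher.

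Inflammatory mediators were lower in 6 of 21 cases and higher in 2 (38.1%, beside 12.2% of all genes). Saa3, an acute phase protein, was at 1.19 and 1.52 FPKM in the K107R libraries and 5.35 and 7.67 FPKM in the WT libraries (-1.66 ± 0.13 SE, adjusted p = 3.12e-05). Orm1, orosomucoid, was at 63.3 and 52.8 FPKM against 161 and 115 FPKM (-1.22 ± 0.13 SE, adjusted p = 0.000258) and shares sequence with Orm2, so its value is uncertain. Nos2 (-0.64), Hp (-0.49) and Tnf were lower too, as was Ccl5 (-2.24), a T cell chemokine that also sits in the T cell list. Cxcl1, a neutrophil attractant, was higher at 5.15 and 2.75 FPKM against 1.597 and 0.681 FPKM (1.20003 ± 0.24 SE, adjusted p = 0.00921), and so was Ccl8 (0.44). Of the 21, 8 count as lymph node transcripts. The inflammatory counts were 0 higher and 3 lower without the replicate block, and 0 and 5, 1 and 5, 0 and 6 and 0 and 5 without K107R library 1, K107R library 2, WT library 1 and WT library 2 in turn. Interferon response genes were lower in 11 of 22 cases with vehicle (beside 2.22% of all genes), with a median of -0.51. With rosiglitazone 8 of the 22 were lower (36.4%), with a median of -0.27. Examples are Mx1 (-0.87 ± 0.0853 SE, adjusted p = 0.000119) and Psmb8 (-0.78 ± 0.0909 SE, adjusted p = 0.000359) with rosiglitazone, and 17 of the 22 count as lymph node transcripts. Without the block 1 interferon gene was lower, and 3 or 4 with a library left out.

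Among the lists, those of lymph node cells had the highest shares of members called. All 20 tested B and plasma cell markers were lower (median -2.49), as were 27 of 28 T and natural killer cell markers (median -2.02) and 9 of 14 lymph node stroma markers (median -0.69). Without the block the lower ones numbered 18, 21 and 5. Cd79b, part of the B cell receptor, was at 8.78 and 11.005 FPKM in the K107R libraries and 76.1 and 104 FPKM in the WT libraries (-3.06 ± 0.11 SE, adjusted p = 6.16e-07). Glycam1, a mucin of the lymph node's high endothelial venules, was at 6.84 and 4.03 FPKM against 70.5 and 50.3 FPKM (-3.27 ± 0.15 SE, adjusted p = 1.36e-06), and Ly6d, a B lineage marker, at 9.58 and 18.6 FPKM against 99.3 and 154 FPKM (-3.11 ± 0.11 SE, adjusted p = 5.14e-07). In all 3 the WT values were several times the K107R values in both pairs. Ccl21a, the chemokine of lymph node stroma, was at 8.04 and 18.2 FPKM against 96.5 and 107.5 FPKM with a wide error (-2.97 ± 0.75 SE, adjusted p = 0.0319), did not pass in any refit with 1 library left out, and has near-identical copies. The killer cell protease gene Gzma was the T and natural killer cell marker that did not pass (0.2999 ± 0.14 SE, adjusted p = 0.225).

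Summed over its list, the B cell level was 108 and 93.2 FPKM in K107R and 699.996 and 632 FPKM in WT with rosiglitazone, against 303 and 249 FPKM and 465 and 367 FPKM with vehicle. The T cell level was 101 and 80.3 FPKM against 526 and 461 FPKM with rosiglitazone. No marker of either list was at 0 in any of these libraries. The inguinal depot holds a lymph node, and the labels do not say whether it was removed. How much of the node each sample held was not tested, so no immune change of the fat itself is read from these lists.

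Of the 15 largest falls outside the lymph node set, several are known from lymphocytes, and the rule did not catch them: Acap1, Rasal3, Rltpr, Tespa1, Hsh2d and Vpreb3, whose r with the node markers ranged from 0.158 (Vpreb3) to 0.767 (Acap1). Acap1 was at 3.19 and 3.31 FPKM against 22.6 and 27.1 FPKM (-2.6002 ± 0.12 SE, adjusted p = 1.36e-06) and Rltpr, a costimulation partner in T cells, at 1.903 and 1.63 FPKM against 9.63 and 11.1 FPKM (-2.03 ± 0.0968 SE, adjusted p = 1.36e-06). Clu, clusterin, was at 22.5 and 15.6 FPKM against 122 and 84.8 FPKM (-2.38 ± 0.0826 SE, adjusted p = 5.14e-07). With r of at least 0.5 in place of 0.8, chosen after seeing the data, 3555 genes counted as lymph node transcripts, and 550 others were higher and 397 lower. The count of other genes that were lower thus went from 744 to 397, and that of higher ones from 561 to 550. Thrsp, Fasn, Pnpla3, Gdpd3, Adrb3, Rbp4 and Saa3 are among the lower genes that this looser rule counts as lymph node transcripts.

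Skeletal muscle genes were higher in K107R in 11 of 19 cases (57.9%, beside 12.2% of all genes), with none lower and a median of 0.49. Tnnc2, a fast troponin, was at 4.81 and 12.1 FPKM in the K107R libraries and 0.566 and 1.74 FPKM in the WT libraries (2.08 ± 0.22 SE, adjusted p = 0.000228), and the muscle creatine kinase Ckm at 3.62 and 3.301 FPKM against 0.119 and 0.0575 FPKM (2.04 ± 0.104 SE, adjusted p = 2.12e-06). Tnnt3 was at 5.78 and 9.61 FPKM against 0.937 and 1.75 FPKM (1.88 ± 0.23 SE, adjusted p = 0.000465). The genotypes did not overlap for Tnnc2, Ckm and Tnnt3. The summed muscle level was 278 and 206 FPKM in K107R and 207 and 148 FPKM in WT, so the summed ranges did overlap. With vehicle, 12 of 19 were higher (beside 1.38% of all genes), with a median of 1.49. Fabp3, Cox6a2 and Cox8b are also known from muscle, and the part of muscle fibres in these values was not tested. The counts were 7 higher and 0 lower without the replicate block, and 7 and 0, 8 and 0, 8 and 0 and 9 and 0 without K107R library 1, K107R library 2, WT library 1 and WT library 2 in turn.

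Other cell types moved less. None of 18 endothelial and none of 10 Schwann cell and nerve markers passed. Of 14 mural markers 4 were lower (28.6%, beside 12.2% of all genes), such as Des (-0.89 ± 0.11 SE, adjusted p = 0.00055), and 2 without the block. Of 7 erythrocyte genes 3 were lower, but 0 passed without the block and 0 or 1 when a library was left out. Of 13 epithelial genes 2 were higher (15.4%, near the share of all genes), Prlr and Cldn3, both under 2 FPKM, and 0 passed without the block. Among 14 mast cell genes Tpsab1 was lower (-1.24 ± 0.11 SE, adjusted p = 7.46e-05), and its reads can be shared with the near-identical Tpsb2.

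**Figure D4:**
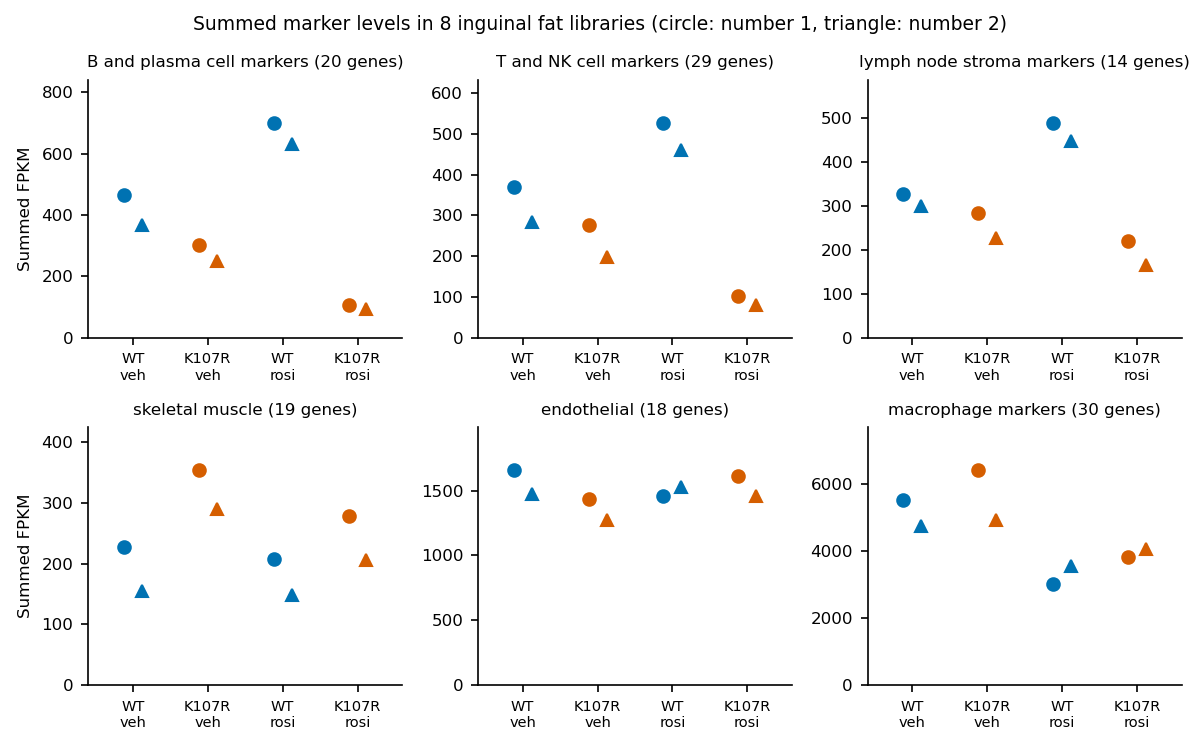
Summed FPKM of 6 marker lists in 8 inguinal libraries, by genotype and treatment, circles for libraries numbered 1 and triangles for those numbered 2. The B, T and lymph node stroma sums are lowest in K107R with rosiglitazone and highest in WT with rosiglitazone, while the skeletal muscle sums are highest in K107R with vehicle.

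Without the drug, fewer genes differed between the genotypes: 491 of 13669 passed with vehicle (3.59%), 188 higher (1.38%) and 303 lower (2.22%). This balance turned in other fits, to 56 higher and 23 lower without the replicate block, and to 67 and 28, 51 and 26 and 53 and 30 without K107R vehicle library 2, WT vehicle library 1 and WT vehicle library 2 in turn. It was 69 and 106 without K107R vehicle library 1 and 377 and 387 after rescaling. The vehicle and rosiglitazone comparisons share no library. Of the 561 genes higher with rosiglitazone, 122 (21.7%) were higher with vehicle, which is 64.9% of the 188. Of the 1108 lower ones, 217 (19.6%) were lower with vehicle, 71.6% of the 303. Another 5 genes passed in both comparisons in opposite directions.

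The difference between the 2 genotype effects was tested directly, and 477 genes passed (3.49%), 82 above 0 (0.6%) and 395 below (2.89%). Sptlc3 differed at both treatments. With vehicle it was at 1.68 and 0.961 FPKM against 0.0917 and 0.0619 FPKM, and the interaction was 2.38 ± 0.21 SE, adjusted p = 0.000309. These vehicle values lie near or under the 1 FPKM added before the log, which shrinks their difference. The ratio of K107R to WT was not larger with the drug in either pair, so a larger fold difference is not shown. Hsd17b11 was at 73.7 and 42.8 FPKM against 55.01 and 39.2 FPKM with vehicle and did not pass there (0.27 ± 0.13 SE, adjusted p = 0.422), and its interaction was 1.83 ± 0.19 SE, adjusted p = 0.000583. Elovl3 (1.56 ± 0.23 SE, adjusted p = 0.00443), Fabp3 (1.58 ± 0.195 SE, adjusted p = 0.0018) and Ehhadh (0.88 ± 0.17 SE, adjusted p = 0.0247) also had a genotype effect that was larger with rosiglitazone. On the lower side, Thrsp was at 94.3 and 115 FPKM against 147 and 174 FPKM with vehicle, and the interaction was -1.55 ± 0.12 SE, adjusted p = 0.000177. Gdpd3 (-1.53 ± 0.12 SE, adjusted p = 0.000177) and Fasn (-0.59 ± 0.12 SE, adjusted p = 0.0305) followed. By value, Thrsp was higher with the drug than with vehicle in WT and lower in K107R.

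A second set of genes differed between the genotypes with vehicle and had no interaction past the test. Plin5 was at 47.7 and 73.5 FPKM against 15.1 and 20.5 FPKM with vehicle (1.69 ± 0.0881 SE, adjusted p = 1.13e-05; interaction -0.32 ± 0.12 SE, adjusted p = 0.332), and Fgf21 at 7.02 and 6.42 FPKM against 2.02 and 1.704 FPKM (1.43 ± 0.10003 SE, adjusted p = 0.00011; interaction 0.44 ± 0.14 SE, adjusted p = 0.204). Pdk4 (1.33 with vehicle), Cyp4b1 (1.19), Ephx2 (1.04) and Ucp1 (-1.02) behaved likewise. A missed threshold does not show that the effects were equal. For the muscle gene Ckm the genotype difference on the log2(FPKM + 1) scale was smaller with the drug (-1.14 ± 0.15 SE, adjusted p = 0.00226). Its WT values lie under the 1 FPKM added before the log, at 0.277 and 0.254 FPKM with vehicle. By ratio of K107R to WT, the difference was smaller with the drug in pair 1 and larger in pair 2.

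**Figure D5:**
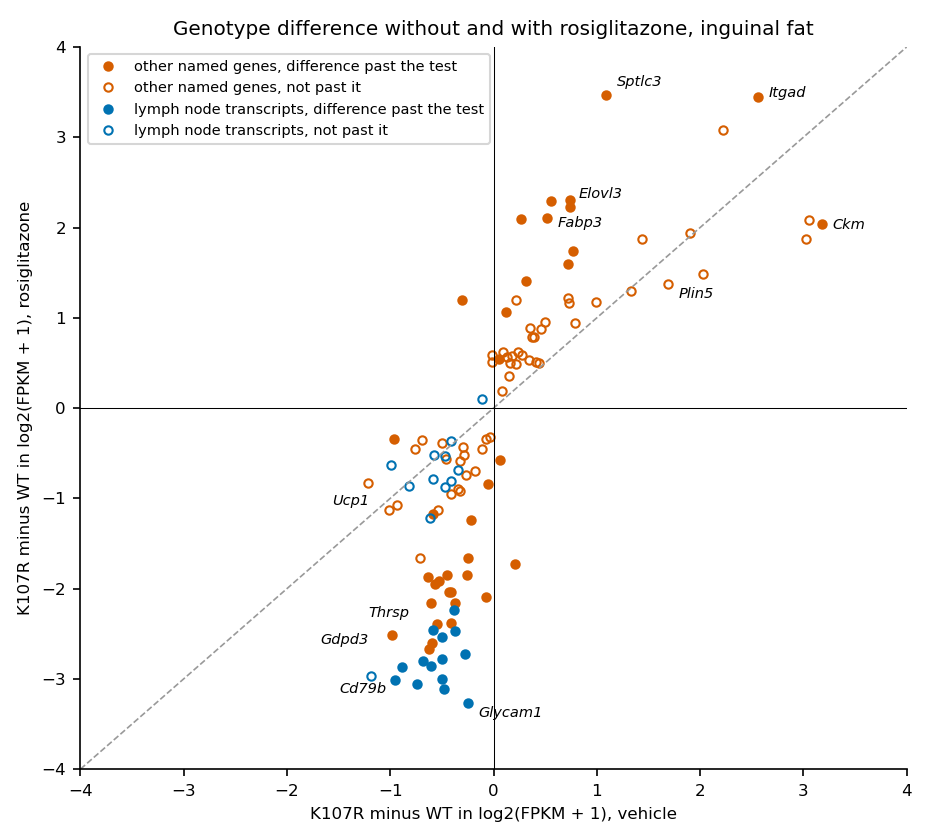
Genotype difference in log2(FPKM + 1) with vehicle (x axis) and with rosiglitazone (y axis) for genes chosen by the naming rule, blue for lymph node transcripts and orange for the others, filled where the difference between the 2 effects passed the test, with a dashed line of equal effects. Sptlc3 (1.09, 3.47) lies far above the line and Glycam1 (-0.24, -3.27) far below it, while Plin5 (1.69, 1.37) lies near it. The 1 FPKM added before the log shrinks differences at low levels, such as that of Sptlc3 with vehicle.

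Between depots, the genotype effect with rosiglitazone differed for 654 genes (4.78%), 138 above 0 (1.01%) and 516 below (3.77%). The B cell gene Cd79b was among the latter (-2.47 ± 0.16 SE, adjusted p = 4.19e-05). Of the leading fat genes, Thrsp (-0.17 ± 0.12 SE, adjusted p = 0.645), Gdpd3 (0.34 ± 0.12 SE, adjusted p = 0.219), Fabp3 (-0.24 ± 0.195 SE, adjusted p = 0.707) and Hsd17b11 (0.76 ± 0.19 SE, adjusted p = 0.0538) had no depot difference past the test. The muscle gene Tnnc2 was at 0.513 and 0.464 FPKM against 0.332 and 1.499 FPKM in epididymal fat (2.37 ± 0.32 SE, adjusted p = 0.00224).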

How the data were processed

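RNA of 16 fat libraries (8 groups of 2) was read as 75-nt single ends after stranded mRNA library preparation (4 ug RNA input), per the labels' protocols. The deposited values are FPKM per gene for 14023 genes, used as the authors deposited them. The submitters' processing notes name CASAVA 1.8.2, TopHat2 2.0.12, Cufflinks 2.2.1 and mm10. Annotation, strand setting and library scaling are not given in the sources used here, and FPKM values hold no counts, so depth is unknown. The test took the 13669 genes that reached 1 FPKM in 2 or more libraries, transformed to log2(FPKM + 1). limma 3.58.1 (R 4.3.3), with a mean-variance trend, fitted 1 mean per group over all 16 libraries plus the replicate number as a block in each depot, with 6 residual degrees of freedom. The model code was tested on simulated data. Deviations of same-numbered inguinal libraries correlated at r = 0.699 to 0.791 in all 6 pairs of groups (across 13669 genes, which are not independent). Replicates were not duplicates (r of log2 values 0.934 to 0.976, at most 1 identical value above 0).

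Named genes are up to 15 per direction with the largest change past the test, not overlapping between groups and at 2 FPKM or more (8 per direction for lymph node transcripts), up to 4 called members of each of the 33 lists (for a list with none called, the 2 members with the smallest p), and Pparg. Scd1 was left out, as were genes listed at 0 in both libraries of a group but high elsewhere. Other genes were named after their values were seen. A few genes that the rule selects are not reported here. The comparison, its members and the lists were chosen with earlier results of these data known. Coordinates of the Pparg codon are from GENCODE on GRCm38, the assembly of mm10. Gene positions, neighbour windows and promoter windows are from RefSeq (GRCm38.p6), whose gene table matched 13382 of the symbols. Alternatives changed the pseudocount, filter, scaling, block, libraries fitted and lymph node rule.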

Additional observations from a re-analysis of the deposited data

Results flagged for a closer look

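These results stand out because the genotype effect itself differed between treatments or depots, by a test of that difference within limma (adjusted p over all genes). They come from the genes with the largest changes outside the lymph node set. The inguinal change with rosiglitazone that picked these genes is also part of both differences tested. The choice therefore favours large differences, and the adjusted p does not account for it. Between rosiglitazone and vehicle in inguinal fat, the genotype effect was more positive with the drug for 8 genes, by 2.38 for Sptlc3, 1.83 for Hsd17b11, 1.74 for S100g, 1.58 for Fabp3, 1.56 for Elovl3, 1.48 for Scnn1g, 0.965 for Dusp9 and 0.882 for Itgad on the log2 scale. It was more negative with the drug for 16 genes, by -2.04 for Dapl1, -2.02 for Vpreb3, -2 for Acap1, -1.97 for Clu, -1.84 for Haao, -1.79 for Rasal3, -1.62 for Rltpr, -1.6 for Napsa, -1.6 for Chst3, -1.55 for Thrsp, -1.53 for Gdpd3, -1.4 for B4galnt1, -1.39 for Trim7, -1.38 for Tespa1, -1.23 for Hsh2d and -1.14 for Ckm. The adjusted p of these ranged from 4.73e-05 to 0.00693. Vehicle values of Sptlc3 and Scnn1g, and WT values of Ckm, lie near or under the 1 FPKM added before the log. For Sptlc3 and Scnn1g the ratio of K107R to WT was not larger with the drug in either pair. For Ckm the ratio was smaller with the drug in pair 1 and larger in pair 2.

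Between inguinal and epididymal fat with rosiglitazone, the genotype effect was more positive in inguinal fat for 5 genes, by 2.37 for Tnnc2, 2.34 for Tnnt3, 2.14 for Ckm, 1.51 for Itgad and 1.44 for S100g. It was more negative in inguinal fat for 13 genes, by -2.65 for Dapl1, -2.4 for Vpreb3, -2.39 for Acap1, -2.23 for Haao, -2.04 for Rasal3, -2.03 for Napsa, -1.99 for Rltpr, -1.9 for Trim7, -1.88 for Hsh2d, -1.87 for B4galnt1, -1.65 for Chst3, -1.57 for Clu and -1.55 for Tespa1. The adjusted p of these ranged from 5.04e-05 to 0.0152. For Tnnc2, Tnnt3 and Ckm the skeletal muscle markers moved with the inguinal genotype, and for Acap1, Rasal3, Rltpr, Tespa1, Hsh2d and Vpreb3 the lymph node markers did, and the part of these cells was not tested. No group of the series has 4 or more libraries, so no search for single outlying libraries was made.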

How the results depend on the processing

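For K107R against WT with rosiglitazone, the 1669 genes called became 2594 with median-ratio rescaling, 565 without the replicate block and 947 when genes with r of at least 0.5 to the lymph node markers were left out, an alternative chosen after seeing the data. With each of the 4 libraries left out in turn the count was 855 to 1030 (855 without K107R library 1, 927 without K107R library 2, 1030 without WT library 1 and 949 without WT library 2). The vehicle comparison, with 491 calls, had 764 with rescaling, 79 without the replicate block, 290 with a single block over both depots and 77 to 175 with a library left out. The difference between the treatments, with 477 calls, had 132 without the block and 249 to 337 with a library left out. The difference between the depots, with 654 calls, had 199 without the block and 340 to 1036 with a library left out, the highest without epididymal K107R library 1. A pseudocount of 0.1, no filter, the 8 inguinal or the 4 compared libraries alone, and leaving out the genes listed at 0 kept the main count within 1.5 times, at 1585 to 2065. No gene selected by the naming rule changed sign between the main fit and a setting where it passed in either. The balance of calls did turn: the main comparison had more higher than lower genes (1322 and 1272) with rescaling, which moved its median from -0.0143 to 0.0424 and that of the depot difference from -0.0442 to 0.0446, and the vehicle comparison had more higher than lower genes (56 and 23) without the block and with 3 of its 4 libraries left out in turn. Of the 119 genes selected by the naming rule, 40 lost their call without the block. The 38 with the largest changes kept theirs in every setting run except Ccl21a. With 1 library left out of a group, its remaining library is assumed to vary like the other groups. In groups of 2, the number of libraries limits the precision, and depth is unknown. Library number and whatever else differed between the libraries numbered 1 and 2 cannot be told apart.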

Other observations

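Other single genes were higher in K107R inguinal fat with rosiglitazone. Scnn1g, a subunit of the epithelial sodium channel, was at 5.46 and 4.58 FPKM in the K107R libraries and 0.303 and 0.269 FPKM in the WT libraries (2.22 ± 0.0878 SE, adjusted p = 7.04e-07). Its neighbour Scnn1b, another subunit, lies 96.6 kb away and was at 1.52 and 1.25 FPKM against 0.116 and 0.0357 FPKM (1.15 ± 0.0732 SE, adjusted p = 7.77e-06). The pair stood far above WT, at low levels. Cacng5, a calcium channel subunit of the gamma family, was at 14.7 and 10.7 FPKM against 2.84 and 2.28 FPKM (1.93 ± 0.089 SE, adjusted p = 1.36e-06) and S100g, a calcium-binding protein, at 8.69 and 5.74 FPKM against 0.857 and 0.452 FPKM (2.299 ± 0.19 SE, adjusted p = 4.11e-05). Chrna2, a nicotinic acetylcholine receptor subunit, was at 27.6 and 22.9 FPKM against 6.95 and 7.62 FPKM (1.66 ± 0.14 SE, adjusted p = 3.58e-05), and with vehicle at 6.83 and 5.29 FPKM against 1.29 and 1.34 FPKM (1.603 ± 0.14 SE, adjusted p = 0.000325). Scnn1b and Chrna2 were named after their values were seen.

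Signalling and stress genes moved in a few members. Dusp9, a phosphatase of MAP kinases, was at 28.3 and 28.8 FPKM against 7.35 and 8.41 FPKM (1.74 ± 0.102 SE, adjusted p = 4.65e-06), and Ubd, a ubiquitin-like modifier, at 744 and 578 FPKM against 249 and 213 FPKM (1.51 ± 0.12 SE, adjusted p = 2.38e-05). Fos, an immediate early transcription factor, was at 33.3 and 24.5 FPKM against 10.7 and 9.66 FPKM (1.41 ± 0.14 SE, adjusted p = 0.000141) with rosiglitazone and at 14.3 and 11.4 FPKM against 11.7 and 8.68 FPKM with vehicle (0.31 ± 0.14 SE, adjusted p = 0.372). Of 25 immediate early and stress genes, 4 were higher (Fos, Atf3, Ier3 and Nr4a1) and 2 lower (Egr3 and Ier2). This share was 24%, beside 12.2% of all genes, and without the replicate block 1 was higher and 0 lower. Lipg, endothelial lipase, was at 16.4 and 9.58 FPKM against 5.23 and 3.896 FPKM (1.297 ± 0.14 SE, adjusted p = 0.000223), and Fbp2, the muscle form of fructose bisphosphatase, at 25.6 and 30.97 FPKM against 6.99 and 9.43 FPKM (1.67 ± 0.104 SE, adjusted p = 6.59e-06). Of 12 neutrophil genes, 3 were higher and 2 lower (41.7%, and 1 and 0 without the block). Among the higher ones was S100a9 at 6.52 and 6.66 FPKM against 2.404 and 2.21 FPKM (1.198 ± 0.205 SE, adjusted p = 0.00395). Ubd, Lipg and Fbp2 were named after their values were seen.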
